A study of Mus musculus with 15 samples.

Results

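The hearts of the 2 inbred mouse strains C3H and C57Bl/6 were compared on 10 arrays, 5 per strain, out of 15 in the series. The other 5 arrays were of B6C3F1, the first-generation cross of these strains. They entered the fit as a group of their own, so that all 15 arrays shared one estimate of the spread, and are otherwise not described. C3H stands for C3H/HeJ and C57Bl/6 for C57BL/6J. All mice were untreated males that had received a telemetry transmitter at 7 weeks of age and were 9 to 10 weeks old when the heart apex was taken. The labels give 1 mouse to an array, and each labelling reaction began with 50 ng of total RNA and amplified it in 2 rounds. The arrays read whole apex tissue, so that fewer cells of a type and less RNA per cell cannot be told apart. Sample numbers run in 1 block per strain, so that handling order and strain cannot be told apart either.

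Heart muscle burns mainly fatty acids in densely packed mitochondria, and the nuclear receptor PPAR alpha switches on the genes for this. Proteins of the cell membrane and of the sarcoplasmic reticulum are folded in the endoplasmic reticulum (ER) by chaperones and disulfide isomerases. Some of the genes for these hold a short promoter element, the ER stress response element. An Affymetrix array reads a transcript through probe sets, groups of short probes placed at different points along it, so that one gene can be read several times and the readings need not agree.

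Of 45032 probe sets that are not controls, 27019 were bright enough to test. A probe set was called when limma's p, adjusted over all probe sets tested, was under 0.05, and 3435 were called (12.7%): 1541 were higher in C3H (5.70%) and 1894 lower (7.01%). With each array centred on its own median the balance turned, to 2079 higher and 1148 lower. All levels and differences below are log2(signal + 16), and every difference is C3H minus C57Bl/6. Read at the brightest probe set of each gene, 1930 of 13111 genes were called (14.7%), of which 896 were higher (6.83%) and 1034 lower (7.89%), and the median difference over all genes was -0.02. The 5 arrays of one strain lay entirely above or below the 5 of the other for 1464 genes (11.2%). Arrays of one strain correlated at 0.957 to 0.970 for C3H and 0.958 to 0.969 for C57Bl/6, against 0.936 to 0.952 between strains. Added poly-A control RNAs were brighter on the C3H arrays (9.34 ± 0.64, SD, n = 5) than on the C57Bl/6 arrays (8.69 ± 0.60), with overlapping ranges, and 2629 probe sets were called with their level as a covariate. The Gapdh 3′ minus 5′ reading, a sign of RNA quality, was 0.60 ± 0.26 on the C3H arrays and 0.85 ± 0.24 on the C57Bl/6 arrays, also overlapping, and 3474 probe sets were called with it as a covariate. The part of both measures in single results was not tested beyond those fits.

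Bright and well measured genes were those with a mean of at least 10 (a signal of 1008) and an SD of at most 0.30 in both strains. There were 3228 of them, and 598 were called (18.5%): 280 higher in C3H (8.67%) and 318 lower (9.85%). Their median standard error was 0.10, against 0.16 over all genes tested. Most called differences in this set were small, with 440 of 598 under 1.5-fold, while 17 were higher and 10 lower by 2-fold or more. The arrays of the strains did not overlap for 419 of the 598.

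Of 22 tested genes of the unfolded protein response, 10 were lower in C3H and 1 was higher. The list holds chaperones and enzymes of protein folding in the ER and also regulators of the stress response, such as Atf4, Atf6, Xbp1 and Trib3, which were not called. The median difference was -0.38, against 7.89% lower and a median of -0.02 over all genes. The lower genes were the disulfide isomerases Pdia6 and Pdia3, the glycoprotein chaperones Calr and Canx, the ER form of Hsp90, Hsp90b1, the secreted stress protein Manf, the co-chaperones Dnajb11 and Dnajb9, the chaperone Hyou1 and the quality-control protein Sel1l. Ddit3, a transcription factor of prolonged ER stress, was the gene that was higher, by 0.65 ± 0.20 (SE, adjusted p = 0.0315). Windows from 5 promoters of the list are shown because they hold the ER stress response element, whose fixed letters are in capitals: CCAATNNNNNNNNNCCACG, or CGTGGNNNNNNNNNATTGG where it lies on the other strand. The sequences are RefSeq's, of the build GRCm38.p6, and run 5′ to 3′ along the gene's own strand.
Pdia6, chr12:17266476-17266524, plus strand: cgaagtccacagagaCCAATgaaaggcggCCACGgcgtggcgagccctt
Hsp90b1, chr10:86705518-86705671, minus strand: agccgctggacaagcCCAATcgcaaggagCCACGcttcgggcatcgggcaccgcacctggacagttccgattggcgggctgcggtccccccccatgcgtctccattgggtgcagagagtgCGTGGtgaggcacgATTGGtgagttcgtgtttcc
Calr, chr8:84847060-84847108, minus strand: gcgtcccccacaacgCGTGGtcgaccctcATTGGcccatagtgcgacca
Canx, chr11:50325785-50325833, minus strand: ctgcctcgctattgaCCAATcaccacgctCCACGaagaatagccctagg
Hspa5, chr2:34772010-34772058, plus strand: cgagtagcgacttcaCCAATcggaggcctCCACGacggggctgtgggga

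The element was searched on both strands of promoters of 300 bases, from 250 before to 50 after the gene's start. It was present in 37 of 27025 genes (0.137%), and in 7 of the 19 genes of the list that had a promoter sequence. Hsp90b1 held it at 2 places. Of the 8 lower genes with a promoter sequence, 4 held it, and the other 3 genes of the list that held it (Hspa5, Creld2 and Dnajc3) were not called. Of the 8 tested genes that held it outside the list, 1 was lower, Acacb, an acetyl-CoA carboxylase of the mitochondrial membrane, with a mean of 11.33 in C3H and 11.83 in C57Bl/6. A match of letters is a description and does not show that a factor binds there.

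Pdia6 was read at 10.97, 11.13, 10.50, 10.47 and 11.06 on the C3H arrays and at 12.22, 11.91, 12.37, 11.84 and 12.19 on the C57Bl/6 arrays. The strains did not overlap, and the difference was -1.28 ± 0.14 (2.43-fold, adjusted p = 1.55e-06). Hsp90b1 was read at 12.39, 12.18, 12.17, 11.69 and 11.85 in C3H and at 12.83, 12.64, 13.06, 12.89 and 12.67 in C57Bl/6. Here too every C3H array was below every C57Bl/6 array, with a difference of -0.76 ± 0.12 (adjusted p = 0.000202). Manf differed by -0.89 ± 0.16, Pdia3 by -0.93 ± 0.18, Calr by -0.63 ± 0.12 and Dnajb11 by -0.80 ± 0.18, with adjusted p from 0.000652 to 0.00421. The strains did not overlap for Manf, Pdia3 and Calr. Hspa5, the main Hsp70 chaperone of the ER, was read at 14.59, 14.43, 14.32, 14.47 and 14.37 in C3H and at 14.75, 14.81, 14.71, 14.55 and 14.63 in C57Bl/6. The strains overlapped, since the highest C3H array was above the lowest C57Bl/6 array, and the difference of -0.25 ± 0.08 missed the threshold (adjusted p = 0.0524). The calls of Canx, Sel1l, Dnajb9, Hyou1 and Ddit3 were close to the threshold (0.0169 to 0.0424), and each was lost when at least 1 array was left out. The lower count was 6 when each array was centred on its own median, 6 in a fit without the intensity trend, and 7 to 10 when 1 array was left out. With the Gapdh covariate it was 7, and Canx, Sel1l, Dnajb9 and Hyou1 were not called (0.0537 to 0.185).

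**Figure D1:**
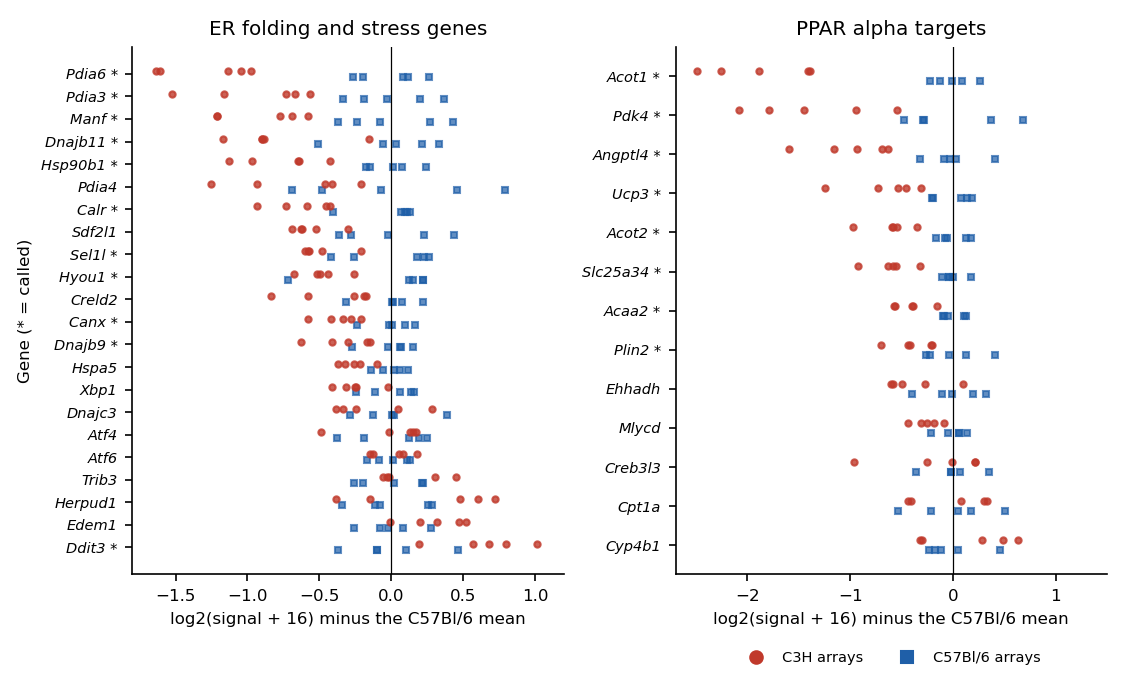
Values of the 22 tested unfolded protein response genes and the 13 tested PPAR alpha targets on each C3H array (circles) and C57Bl/6 array (squares), as log2(signal + 16) minus the mean of the 5 C57Bl/6 arrays; a star marks a called gene. The circles lie wholly to the left of the squares for Pdia6, Hsp90b1 and Acot1, and spread over them for Atf4, Atf6 and Cpt1a.

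Other probe sets of these genes gave the same sign at most, but not all, positions. Calr was lower at all 3 of its tested sets, with -0.63 ± 0.12 at the brightest and -0.53 ± 0.12 and -0.63 ± 0.14 at the others. The second set of Pdia3 gave -0.87 ± 0.29 (adjusted p = 0.0528), and the direct test against the first gave an adjusted p of 0.935. The second set of Hsp90b1 gave -0.13 ± 0.14 and was not called, and it differed from the first (adjusted p = 0.0457), as did 1 of the other 3 sets of Sel1l (0.06 ± 0.21, adjusted p = 0.0452). Over the 11 called genes of the list, 7 had another tested set, giving 11 pairs: 4 of the other sets were called the same way, 0 the opposite way and 7 not at all.

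Chaperones of the cytosol and the mitochondria leaned the same way. Of 24 tested, 22 had a difference below 0 (median -0.28, against -0.02 over all genes). Only 4 were called, all lower (16.7%, against 7.89% over all genes). A lean below 0 was not particular to chaperones: it held for 31 of 37 proteasome genes (median -0.11) and 13 of 16 genes of respiratory complex V (median -0.10). Hspd1, the mitochondrial Hsp60, differed by -0.63 ± 0.11 (adjusted p = 0.000416), without overlap. Fkbp4, an Hsp90 co-chaperone, differed by -0.58 ± 0.12 and Hspa8, the constitutive Hsp70, by -0.41 ± 0.09. Ahsa1, which stimulates Hsp90, was called at -0.47 ± 0.11 and missed the threshold after centring (adjusted p = 0.0893). Hsph1 had the largest difference that was not called, -0.91 ± 0.31 (adjusted p = 0.0551). None of the 5 other tested probe sets of the 4 called genes was called, and that of Ahsa1 (0.52 ± 0.29) differed from the brightest (adjusted p = 0.0471).

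Targets of PPAR alpha were lower in C3H. Of 13 tested, 8 were lower (61.5%, against 7.89% over all genes) and 0 higher by limma (median -0.42). At an unadjusted p under 0.05, 0 were higher and 10 lower. Acot1, which hydrolyses acyl-CoA in the cytosol, was read at 7.99, 7.5, 7.97, 6.89 and 7.13 in C3H and at 9.65, 9.26, 9.38, 9.16 and 9.47 in C57Bl/6. The 2 sets of arrays were more than 1 log2 unit apart at their nearest, and the difference was -1.89 ± 0.19 (3.71-fold, adjusted p = 4.34e-07). Its mitochondrial relative Acot2 differed by -0.61 ± 0.11 at the brightest set and by -1.39 ± 0.22 at the other, both called. Pdk4, the kinase that shuts pyruvate out of the citric acid cycle, was read at 11.62, 12.46, 11.96, 11.32 and 12.86 in C3H and at 12.93, 13.78, 14.09, 13.11 and 13.12 in C57Bl/6. It varied widely within both strains, yet the highest C3H array stayed just below the lowest C57Bl/6 array, and the difference was -1.36 ± 0.24 (adjusted p = 0.000506). Acaa2, the last enzyme of mitochondrial beta-oxidation, was called at all 3 of its sets, with -0.42 ± 0.09, -0.60 ± 0.08 and -0.67 ± 0.14. The mitochondrial carrier Slc25a34 differed by -0.60 ± 0.11, and Angptl4, which inhibits lipoprotein lipase, by -1.0 ± 0.23 (adjusted p = 0.00572, and 0.0517 with the poly-A covariate). Ucp3 and Plin2 were called at adjusted p = 0.0218 and 0.0379. Both calls were lost after centring (0.101 and 0.229), with the poly-A covariate (0.169 and 0.173), and without C3H replicate 4 (0.0695 and 0.0719), among other arrays. Cpt1a, Ehhadh, Mlycd, Creb3l3 and Cyp4b1 were not called. Leaving out 1 array gave 6 to 9 lower targets, and the poly-A covariate gave 6.

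The beta-oxidation list also holds the acyl-CoA hydrolases Acot1 and Acot2. Of 23 tested, 6 were lower (26.1%, against 7.89% over all genes) and 0 higher by limma (median -0.17). At an unadjusted p under 0.05, 10 were lower and 0 higher. Acot1, Acot2 and Acaa2 are counted among the PPAR alpha targets above as well. Besides Acot1, Acot2 and Acaa2, Decr1, the dienoyl-CoA reductase for unsaturated fatty acids, was at 13.79 ± 0.17 in C3H and 14.29 ± 0.12 in C57Bl/6 (adjusted p = 0.000971), and at a second set it differed by -0.76 ± 0.09. Etfb and Cpt2 were called at 0.0185 and 0.0186, and both missed the threshold after centring (0.163 and 0.132), with the poly-A covariate (0.0899 and 0.103), and without C3H replicate 4 (Etfb, 0.0584) or C3H replicate 3 (Cpt2, 0.0553). Of the 5 other probe sets of the called genes of this list, 4 were called the same way. Of 19 genes for lipid uptake and storage, 2 were higher and 4 lower (31.6% called, against 14.7% over all genes). The enzymes that complete triglyceride synthesis differed in direction: Dgat2 was lower at both of its sets, by 0.75 at the brightest (12.56 ± 0.25 against 13.31 ± 0.11, adjusted p = 3.94e-05) and with -0.97 ± 0.14 at the other, while Dgat1 gave 0.38 ± 0.11 (adjusted p = 0.0256). The Dgat1 call was lost without C3H replicates 3 (0.0619) or 4 (0.0681) and without C57Bl/6 replicates 3 (0.0765) or 4 (0.0789). The fatty acid transporter Slc27a1 was higher by 0.60 ± 0.15 (adjusted p = 0.00836), and missed the threshold with the poly-A covariate (0.0616). Its second set gave -0.14 ± 0.14, was not called and differed from the first (adjusted p = 0.00201). Cd36, a fatty acid transporter read at 14.41 ± 0.17 and 14.76 ± 0.21, was called at 0.0263. That call was lost after centring (0.146) and without C3H replicates 2 (0.0796) or 5 (0.0600) or C57Bl/6 replicates 1 (0.0830) or 4 (0.0604).

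**Figure D2:**
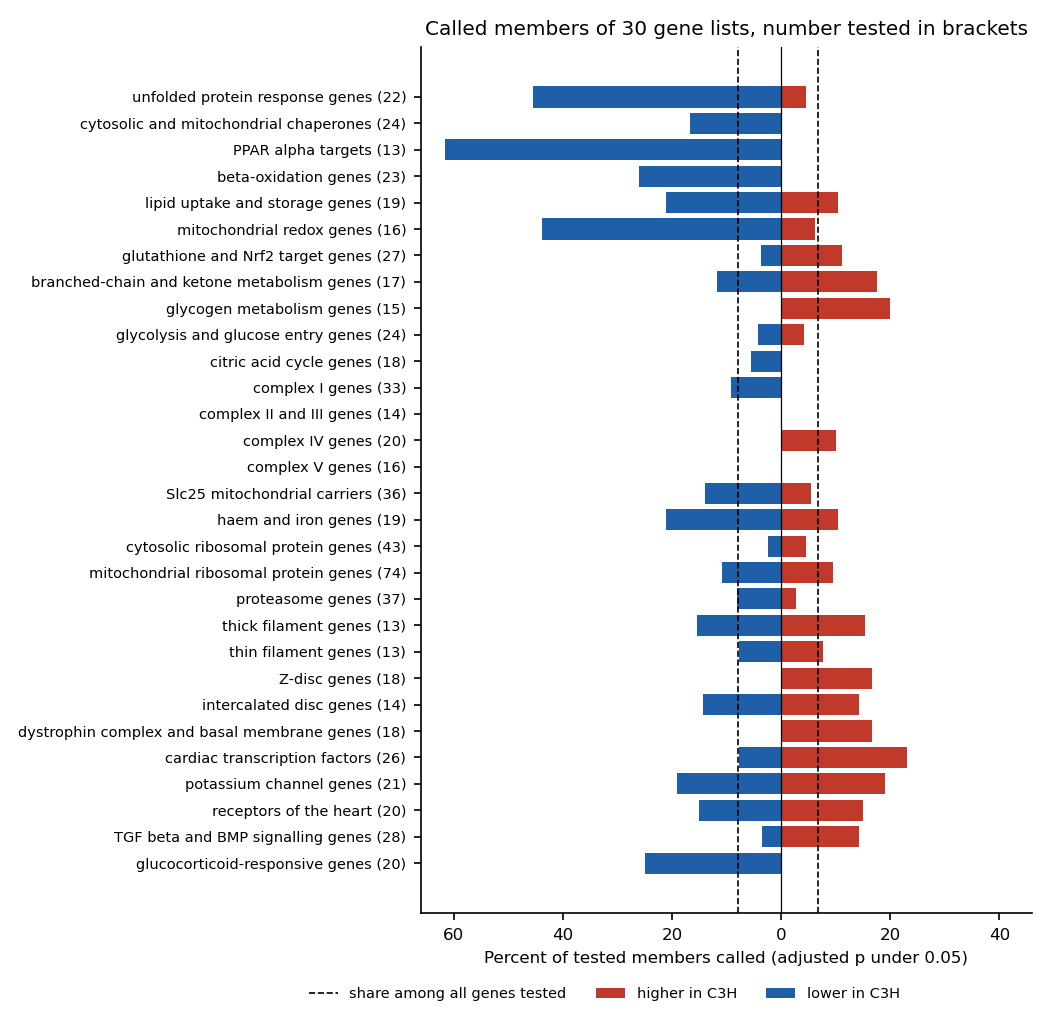
Percent of the tested members of 30 gene lists that were called higher (red, to the right) or lower (blue, to the left) in C3H; the number tested stands in brackets, and the dashed lines give the shares over all genes tested, 6.83% higher and 7.89% lower. Among the lists plotted, the longest blue bars are those of PPAR alpha targets, unfolded protein response genes and the redox list, and respiratory complexes II and III and complex V have no bar.

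The plot holds 30 of 62 lists. Of those left out, antigen presentation genes had 10 lower of 18 (55.6%, against 7.89% over all genes, median -0.70). That direction depended on the probe set, and 11 of 16 pairs were unequal in the direct test. Of the other sets, 9 were called the same way, 3 the opposite way and 4 not at all. H2-D1 gave -4.47 at its brightest set and 4.80 at another, both called. Genes of the cardiac stress programme had 7 higher (46.7%, against 6.83% over all genes) and 1 lower of 15 (median 0.54).

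Genes of branched-chain amino acid and ketone metabolism differed in both directions, 3 higher and 2 lower of 17 (29.4% called, against 14.7% over all genes). All 5 kept their calls in every alternative but the 1.5-fold minimum. Bcat2, the mitochondrial aminotransferase that starts leucine, isoleucine and valine breakdown, was read at 11.73, 11.16, 11.66, 11.84 and 11.33 in C3H and at 9.05, 9.33, 8.85, 9.23 and 8.96 in C57Bl/6. The strains were nearly 2 log2 units apart at their nearest, and the difference was 2.46 ± 0.13 (5.51-fold, adjusted p = 1.04e-11). Bckdhb, a subunit of the next enzyme on that path, was higher by 0.64 ± 0.10. Both subunits of methylcrotonyl-CoA carboxylase, which acts further along the leucine branch, were lower: Mccc2 by 1.49 (9.78 ± 0.19 against 11.27 ± 0.22) and Mccc1 by 0.75 (12.01 ± 0.06 against 12.76 ± 0.09). A second set of Mccc1 gave -1.0 ± 0.23. The other sets of Mccc2 gave -2.04 ± 0.18 and -0.32 ± 0.25, and the last of these was not called and differed from the brightest (adjusted p = 0.0108). Bdh1, the ketone body dehydrogenase, was higher by 0.69 ± 0.11 and, at a second set, by 1.45 ± 0.18.

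Of 16 genes of a redox list, 7 were lower (43.8%, against 7.89% over all genes) and 1, the glyoxalase Glo1, was higher (median -0.13). The plot names the list mitochondrial, but Me1, Glo1 and Sod1 act chiefly in the cytosol and Cat, catalase, in peroxisomes. Only 3 of the lower genes kept their calls in every alternative but the 1.5-fold minimum. Me1, the cytosolic malic enzyme that makes NADPH, was lower by 0.79 (11.09 ± 0.07 against 11.88 ± 0.12), and Hagh, the glyoxalase that acts after Glo1, by 0.77 (11.60 ± 0.23 against 12.37 ± 0.16). Both were lower at every other tested set, with -1.27 ± 0.11 for Me1 and with -1.22 ± 0.10 and -1.12 ± 0.10 for Hagh. Sod1 gave -0.39 ± 0.08 at the brightest set and was not called at its other 3. Idh2, Ucp3, Txn2 and Cat were called at 0.0215 to 0.0394 and lost the call when single arrays were left out, and other sets of Idh2 (0.38 ± 0.27) and Cat (0.13 ± 0.16) were not called and differed from the brightest (adjusted p = 0.0138 and 0.0375). The lower count fell to 3 without C57Bl/6 replicate 1 and to 3 after centring. Among 27 glutathione and Nrf2 target genes, 3 were higher and 1 lower (14.8% called, near the 14.7% over all genes). The lower one, the microsomal glutathione transferase Mgst1, had the largest difference (10.63 ± 0.34 against 12.36 ± 0.12, adjusted p = 1.16e-08). The peroxidases Gpx3 and Gpx1 were higher by 0.58 ± 0.09 and 0.61 ± 0.15. Gss, glutathione synthetase, was higher by 0.38 ± 0.12 (adjusted p = 0.0401), and that call was lost without any one of C3H replicates 1, 2, 3 and 5 or C57Bl/6 replicates 3, 4 and 5 (0.0559 to 0.10).

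Of 19 genes of haem and iron handling, 2 were higher and 4 lower (31.6% called, against 14.7% over all genes). Alad, the second enzyme of haem synthesis, was higher by 1.93 ± 0.16. Of the mitochondrial enzymes later in the path, Ppox (7.40 ± 0.29 against 8.54 ± 0.17, adjusted p = 4.27e-05) and Cpox (8.36 ± 0.41 against 9.21 ± 0.30, adjusted p = 0.00392, and 0.0516 with the poly-A covariate) were lower. Uros differed by -0.43 ± 0.09 (adjusted p = 0.00203, and 0.0531 after centring), and Blvra, which reduces the haem product biliverdin, by 0.34 ± 0.09. Second sets of Cpox (-0.03 ± 0.34) and Uros (0.31 ± 0.34) were not called, and neither was unequal to the brightest in the direct test (adjusted p = 0.310 and 0.172). Hfe, the membrane protein that tunes hepcidin, was lower at its brightest set (-0.97) and at another (-2.65 ± 0.22), and these sizes differed (adjusted p = 0.000501). Among 36 mitochondrial carriers of the Slc25 family, 2 were higher and 5 lower (19.4% called, against 14.7% over all genes). Slc25a40, a glutathione carrier, was higher by 0.88 ± 0.13, and Slc25a38, a glycine carrier of haem synthesis, lower (8.91 ± 0.24 against 9.71 ± 0.19). Slc25a35 and Slc25a37 were called at 0.0185 and 0.0482 and lost the call without C3H replicate 4 (0.0540 and 0.147), among other arrays.

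The respiratory complexes, the citric acid cycle and glycolysis were each called at a share under the 14.7% over all genes. There were 3 lower of 33 complex I genes (9.09%, against 7.89% lower over all genes) and 0 called by limma of 14 for complexes II and III. Complex IV had 2 higher of 20 (10%, against 6.83% higher over all genes) and complex V 0 called of 16. At an unadjusted p under 0.05, 1 gene of complexes II and III was higher and 2 of complex V were lower. Among the genes called by limma, Ndufa12, an accessory subunit of complex I, differed most, with 14.46 ± 0.11 in C3H and 15.30 ± 0.17 in C57Bl/6 (adjusted p = 2.78e-06). Uncalled differences reached a size of 0.85 in complexes II and III and 0.96 in complex IV. A second Ndufa12 set gave -0.67 ± 0.10 and another 0.03 ± 0.13, which was not called and differed from the brightest (adjusted p = 0.000478). Cox7a2l, listed with complex IV, was higher by 0.43 ± 0.08 at its brightest set. Its other sets gave 0.08 ± 0.09 and 0.23 ± 0.08 and were not called, and neither was unequal to the brightest in the direct test (adjusted p = 0.0681 and 0.188). The calls of Ndufs4 (adjusted p = 0.0180), Ndufa4 (0.0219) and Cox6a1 (0.0350) were lost in several alternatives, without C3H replicate 4 for Ndufs4 (0.0572), without C3H replicate 3 for Ndufa4 (0.0697) and without C57Bl/6 replicate 4 for Cox6a1 (0.112). Of 18 citric acid cycle genes 1 was lower, Idh2, and of 24 genes for glycolysis and glucose entry 1 was higher, Hk1 (0.54 ± 0.13, adjusted p = 0.00767, and 0.0617 with the poly-A covariate), and 1 lower. The lower one, the pyruvate dehydrogenase kinase Pdk2, was at 9.28 ± 0.15 in C3H and 10.72 ± 0.17 in C57Bl/6 (adjusted p = 1.82e-08), the same direction as Pdk4. Cytosolic ribosomal proteins had 2 higher (Rps26 and Rps20) and 1 lower (Rps6, -1.43 ± 0.15) of 43. Mitochondrial ribosomal proteins had 7 higher and 8 lower of 74, near the shares over all genes. After centring, 2 were lower, and in the fit without the trend 4 were higher and 4 lower. Mrpl35 (-0.78 ± 0.10, and lower at both of its other sets) and Mrpl27 (-0.53 ± 0.10) were the lower ones with the smallest adjusted p, and Mrpl14 (0.87 ± 0.18) and Mrpl20 (0.82 ± 0.18) the higher ones. Without C3H replicate 3, or without C57Bl/6 replicates 3 or 4, 3 of the 74 were called higher, and without C3H replicate 2 or C57Bl/6 replicate 4, 4 were called lower. In the proteasome, 1 of 37 was higher (Psme1, an activator subunit, by 0.48 ± 0.11). There, 3 were lower (Psmb7, Psmd2 and Psmd9), and 0 were called lower without C3H replicate 2 or without C3H replicate 4.

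Genes of the cardiac transcription factor list were higher more often than lower, with 6 higher and 2 lower of 26 and a median of 0.17. The shares were 23.1% higher, against 6.83% over all genes, and 7.69% lower, against 7.89%. With the poly-A covariate 4 were higher. The Iroquois factors Irx3 and Irx5, which shape repolarisation and conduction, were higher without overlap, Irx3 at 11.67 ± 0.11 against 10.77 ± 0.17 and Irx5 at 10.06 ± 0.11 against 9.03 ± 0.18. Smyd2, a lysine methyltransferase that the list also holds, was higher by 0.45 ± 0.11 and Hand2 by 0.57 ± 0.15. Nkx2-5 was higher by 0.46 ± 0.12 (adjusted p = 0.0145, and 0.112 with the poly-A covariate). Irx4 was called at 0.0256, and that call was lost without C3H replicates 3 (0.0580) or 4 (0.0814) and without C57Bl/6 replicates 1 (0.0551), 4 (0.0501) or 5 (0.0740). Tead1 and Gata6 were called lower at 0.0248 and 0.0462. Neither was called after centring (0.162 and 0.140), and without C3H replicate 4 or C57Bl/6 replicate 1 the count of lower factors was 0. None of the 4 other tested probe sets of the 8 called genes was called.

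Contractile and junction genes were called in both directions. Thick filament genes had 2 higher and 2 lower of 13 (30.8% called, against 14.7% over all genes). The M-band protein Myom1 was lower by 0.70 (13.78 ± 0.26 against 14.48 ± 0.06) and Mylk3, the cardiac myosin light chain kinase, by 0.72 (12.86 ± 0.25 against 13.57 ± 0.12). Myh7, the slow myosin heavy chain, was higher by 2.46 ± 0.17, and Myl4, the atrial light chain, by 1.16 ± 0.14. Of 8 tested atrial markers, 1 (Myl4) was higher and 1 (Kcnj3) lower, with a median of 0.37 and a summed signal of 8960 to 20598 in C3H against 8480 to 9616 in C57Bl/6, and their part in the Myl4 difference was not tested. Myh6, the main adult heavy chain, was not called at its brightest set (15.89 ± 0.21 against 16.15 ± 0.18, adjusted p = 0.192) and was called higher at a dimmer one (10.70 against 9.77, adjusted p = 0.00348). In the dystrophin complex and its matrix anchors, 3 of 18 were higher (16.7%, against 6.83%): the sarcoglycans Sgca (13.71 ± 0.17 against 12.89 ± 0.16, adjusted p = 8.74e-06) and Sgcb (0.51 ± 0.11), and Lama2 (0.36 ± 0.10), whose call was lost without C3H replicate 2 (0.0573) or C57Bl/6 replicate 4 (0.0575). The other sets of Sgcb, of like brightness, gave 1.07 ± 0.12, called higher, and -0.14 ± 0.13, not called, and both differed from the brightest (adjusted p = 0.0186 and 0.00892). At the intercalated disc, where 4 of 14 were called (28.6%), Nrap and Pkp2 were higher by 0.38 ± 0.08 and 0.37 ± 0.08 without overlap. There, Ctnnb1 and Jup were called lower at 0.0253 and 0.0406, and neither call held after centring (0.186 and 0.226) or without C3H replicate 3 (0.0756 and 0.110) or C3H replicate 4 (0.0647 and 0.123), among other arrays. Of 18 Z-disc genes, 3 were called higher (16.7%: Myot, Xirp1 and Pdlim3), and only Myot (0.63 ± 0.13) remained without C3H replicate 1 or C57Bl/6 replicates 1, 4 or 5.

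Of 20 receptors and their partners, 3 were higher and 3 lower (30% called, against 14.7% over all genes). Rgs6, which speeds up G protein inactivation in pacemaker and atrial cells, was lower (7.09 ± 0.15 against 8.50 ± 0.27, adjusted p = 7.81e-05), as was the apelin receptor Aplnr. Rgs5, of the same family, had no single direction: its brightest set was lower (14.03 ± 0.13 against 14.43 ± 0.10), and a second bright set was higher by 1.09 ± 0.13 (adjusted p = 2.78e-06), unequal to the first (adjusted p = 1.65e-05). A set marked _x_at gave -1.14 ± 0.18. Grk5, a receptor kinase, was higher by 0.94 ± 0.15 and, at a second set, by 1.45 ± 0.21. Ptger4 and Adcy5 were called higher at 0.0193 and 0.0338, and Grk5 alone remained without C3H replicate 3 or C57Bl/6 replicate 2. Of 28 TGF beta and BMP genes, 4 were higher and 1 lower (17.9% called, against 14.7% over all genes). The ligand Bmp4 was higher by 1.17 ± 0.17 (8.85 ± 0.23 against 7.68 ± 0.35) and the target Id2 by 1.06 ± 0.19. Smad4 had no single direction. Its brightest set (0.41) and a dimmer set (0.34 ± 0.09) were called higher. Another was called lower, at -1.42 ± 0.14, and was unequal to the brightest (adjusted p = 7.44e-06). The call of Smad7, higher by 0.52, was lost with the poly-A covariate (0.187) and without C3H replicate 4 (0.0770), among other arrays. Acvrl1, the lower gene, missed the threshold after centring (0.0769). Of 20 glucocorticoid-responsive genes, 5 were lower (25%, against 7.89%) and 0 higher by limma, and at an unadjusted p under 0.05 the counts were 6 and 0. The 5 were Ddit4, an inhibitor of mTOR (8.48 ± 0.24 against 10.10 ± 0.47), the factor Klf9 (13.04 ± 0.28 against 14.17 ± 0.31), Errfi1 (-0.66 ± 0.17, adjusted p = 0.0120, and 0.0558 after centring), and Pdk4 and Angptl4, which the PPAR alpha list also holds. With the poly-A covariate 3 were lower. The other sets of Klf9 gave -1.36, -0.68, -0.39, -0.27 and 0.31, of which the first 2 were called.

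The labelled tissue was checked on its markers. All 14 cardiomyocyte markers were tested, at mean levels of 12.9 to 16.2, and 0 were called by limma (1 higher and 2 lower at an unadjusted p under 0.05). Of the 14, 12 had a difference below 0, and the median was -0.19. Their summed signal on the linear scale was 558114 to 757033 on the C3H arrays and 646354 to 844571 on the C57Bl/6 arrays, with overlap. Endothelial markers had 5 lower (31.2%, against 7.89% over all genes) and 1 higher of 16 (median -0.40). Their summed signal was 18222 to 22815 in C3H and 24087 to 29739 in C57Bl/6, without overlap, and their part in the differences above was not tested. The summed signals of fibroblast (79898 to 98836 against 79596 to 96277), smooth muscle, macrophage and adipocyte markers overlapped between the strains. Single markers were called all the same. Fibroblast markers had 3 higher (21.4%, against 6.83% over all genes) and 0 lower of 14. Macrophage markers had 1 higher and 3 lower of 17 (23.5% called, against 14.7% over all genes). Smooth muscle and pericyte markers had 2 higher and 1 lower of 12 (25% called), and adipocyte markers 0 called of 4. T, B and NK cell markers were near the floor, with 7 of 10 too dim to test, as were 8 of 12 skeletal muscle markers.

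Among the bright and well measured genes, the largest fall was that of Sspn, which encodes sarcospan, a small membrane protein of the dystrophin complex. It was read at 11.78, 11.69, 11.65, 11.39 and 11.34 in C3H and at 14.32, 14.03, 14.19, 14.16 and 14.04 in C57Bl/6. No C3H array came within 2 log2 units of a C57Bl/6 array, and the difference was -2.58 ± 0.10 (5.97-fold, adjusted p = 1.02e-13). Its dimmer set was also called, at a smaller difference of -0.83 ± 0.25. Hacd1, a muscle enzyme that lengthens very long fatty acids, was read at 12.82, 12.64, 12.47, 12.69 and 12.54 in C3H and at 13.88, 14.23, 14.03, 13.73 and 13.92 in C57Bl/6. Here the 2 probe sets gave almost the same value, -1.33 ± 0.10 and -1.35 ± 0.11. The direct test of the pair gave an adjusted p of 0.953.

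The other genes with the largest falls among the bright ones were Ngdn, a regulator of translation (-1.94 ± 0.10), Inppl1, the lipid phosphatase SHIP2 (-1.58 ± 0.14), Slc35f5 (-1.37 ± 0.09), and D2hgdh, the mitochondrial D-2-hydroxyglutarate dehydrogenase (-1.21 ± 0.09). Fez2 (-1.16 ± 0.10), Slc25a51, the mitochondrial NAD carrier (-1.15 ± 0.13), Speg, a muscle kinase (-1.09 ± 0.14), Pcbp2, an RNA-binding protein (-1.0 ± 0.11), Naa15, a subunit of an N-terminal acetyltransferase (-1.0 ± 0.10), and Saraf, a brake on store-operated calcium entry (-0.99 ± 0.11), completed the 12. The adjusted p of these 12 ran up to 1.37e-05.

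Klhl41, a Kelch protein of the sarcomere, had the largest rise among the bright genes. It was read at 12.07, 11.81, 12.06, 11.62 and 11.50 in C3H and at 10.01, 10.01, 10.27, 10.23 and 10.07 in C57Bl/6, a difference of 1.70 ± 0.12 (3.24-fold, adjusted p = 1.03e-09). The lowest C3H array was more than 1 log2 unit above the highest C57Bl/6 array. Dhrs7c, a dehydrogenase of the sarcoplasmic reticulum, was the most evenly measured of the rises, at 13.18, 13.06, 13.13, 12.98 and 13.26 in C3H against 11.94, 11.83, 11.82, 11.84 and 12.01 in C57Bl/6. It differed by 1.23 ± 0.08. Each of these genes has 1 probe set, so that nothing on the array repeats the reading.

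Kpna2, an importin that carries proteins into the nucleus, was higher by 1.44 ± 0.09, Ppil1, an isomerase of the spliceosome, by 1.60 ± 0.11, Med1, a Mediator subunit, by 1.45 ± 0.11, and Ptp4a2, a phosphatase, by 1.49 ± 0.12. Washc2, of the endosomal WASH complex, Slc8a1, the sodium-calcium exchanger, the lipid phosphatase Fig4 and the centrosomal Cep128 were higher by 1.2 to 1.27. Glo1 was called higher at 3 of 4 sets, with 1.31 ± 0.10, 1.07 ± 0.08 and 0.68 ± 0.11, and the fourth gave 0.04 ± 0.10. All 24 genes had arrays that did not overlap between the strains, which the rule for choosing them required. The brightest sets of Ngdn, Cep128, Hacd1, D2hgdh and Speg carry a suffix (_x_at or _s_at) that marks probes able to match more than 1 transcript.

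**Figure D3:**
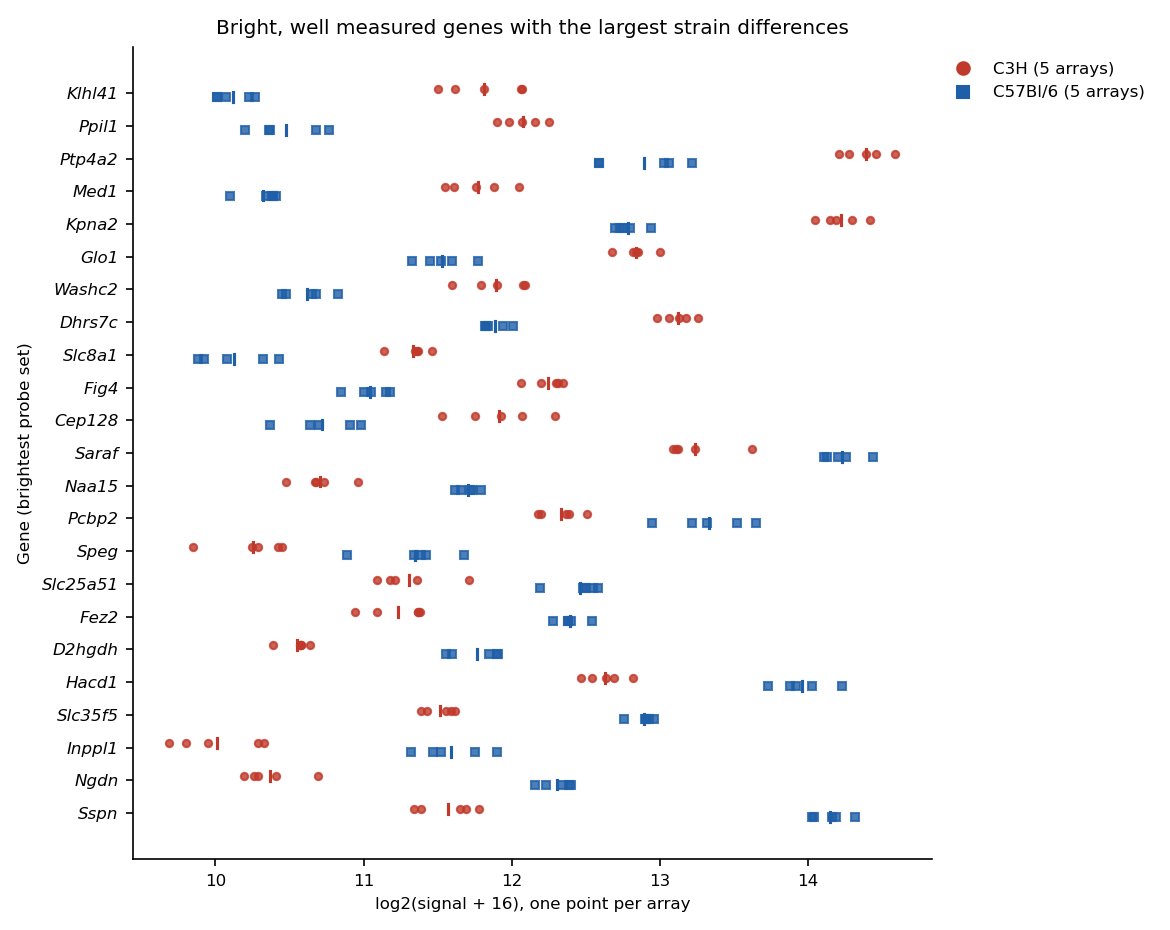
Bright, well measured genes with the largest differences each way, as log2(signal + 16) at the brightest probe set on each C3H array (circles) and each C57Bl/6 array (squares); short bars give the strain means. The strains do not overlap for any of them, from Sspn (11.57 against 14.15) at the bottom to Klhl41 (11.81 against 10.12) at the top.

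Other probe sets of these 24 genes backed some readings and opposed others. Of the 24, 9 had no other tested set and 15 had at least 1. Of those 15, 8 had another set called in the same direction, 3 (Speg, Naa15 and Med1) had other sets that were not called, and 4 (Slc25a51, Pcbp2, Ptp4a2 and Slc8a1) had a set called in the opposite direction. In the direct test, 3 of 3 other sets of Speg, 3 of 3 of Naa15 and 3 of 6 of Med1 were unequal to the brightest. Slc25a51 was lower at its brightest set, with 11.71, 11.36, 11.21, 11.09 and 11.18 in C3H and 12.58, 12.19, 12.55, 12.48 and 12.50 in C57Bl/6. A second set, of like brightness, was higher (11.79 against 11.15, 0.64 ± 0.09, adjusted p = 1.84e-05). The difference at the first set minus that at the second was -1.79 ± 0.14 (adjusted p = 7.56e-07). Slc8a1 was higher at its brightest set (11.34 ± 0.12 against 10.13 ± 0.24) and lower at a dimmer one (7.86 against 8.93, -1.07 ± 0.17, adjusted p = 0.000107). For Ptp4a2, the set at 14.39 against 12.89 was opposed by one at 12.66 against 13.27 (-0.61 ± 0.11), and the third, at 13.05 against 12.98, was not called. Pcbp2 gave -1.0 ± 0.11 and 0.51 ± 0.14. The strain difference of these genes therefore has no single direction on this array.

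How far the probe sets of one gene agreed was measured over 9937 pairs of a gene's brightest set with each other tested set. Of the 13111 genes, 5921 had such a pair and 7190 had 1 tested set. Tested directly, the strain difference was unequal within 829 pairs (8.34%). Where the brightest set was called (1732 pairs), the other set was called the same way in 418 (24.1%) and the opposite way in 71 (4.10%), and was not called in 1243. For comparison, where the brightest set was not called, another set was called in 652 pairs (7.95%), 3.30% higher and 4.64% lower. Where the brightest set was called higher, the other was called lower in 4.14% of pairs, and where it was called lower, the other was called higher in 4.06%. Pairs of one gene share the brightest set and are not independent, so that these shares are descriptions.

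**Figure D4:**
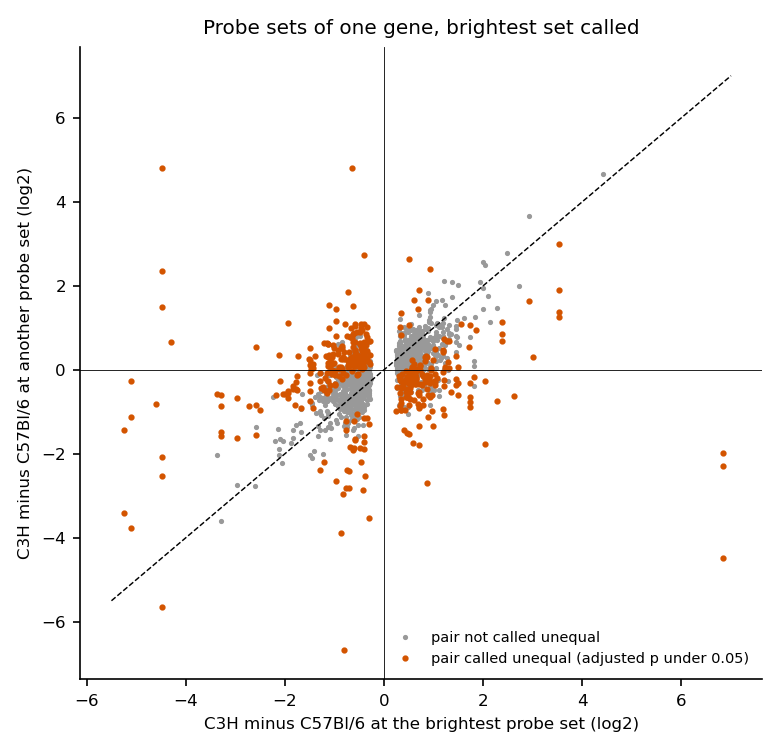
Strain difference (C3H minus C57Bl/6, log2) at the brightest probe set of a gene (horizontal) against that at another tested set of the same gene (vertical), for the 1732 pairs whose brightest set was called; orange points are pairs whose differences were unequal in the direct test, and the dashed line marks equal differences. Many points lie near the horizontal line at 0, where the other set showed little difference, and the 3 pairs of Pdxdc1 stand at 6.85 on the right.

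Agreement grew with the size of the difference and with the brightness of the second reading. Same-way calls made up 19.1% of pairs whose brightest set differed by under 1.5-fold, 24.8% from 1.5 to 2-fold, 30.0% from 2 to 4-fold and 62.1% at 4-fold or more. Opposite calls made up 3.36%, 3.96%, 4.45% and 13.6% of the same classes, and unequal differences 14.7%, 24.6%, 41.3% and 68.2%. The 4-fold class held only 66 pairs of 38 genes. Of its 9 opposite calls, 3 were of Pdxdc1 and 3 of H2-D1, so that a few genes with several sets weigh on its shares. The largest differences were thus both the most often called again and the most often of unequal size. When the other set had a mean of at least 10, 45.1% were called the same way (297 pairs), against 34.6% from 8 to 10 and 11.9% under 8. Across these 297 pairs the differences correlated at 0.75, against 0.40 over all 1732, where pairs share arrays and genes. Pairs with a set marked _x_at or _s_at agreed more often (31.8%) than pairs without one (20.3%), and such sets can share probes or targets.

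**Figure D5:**
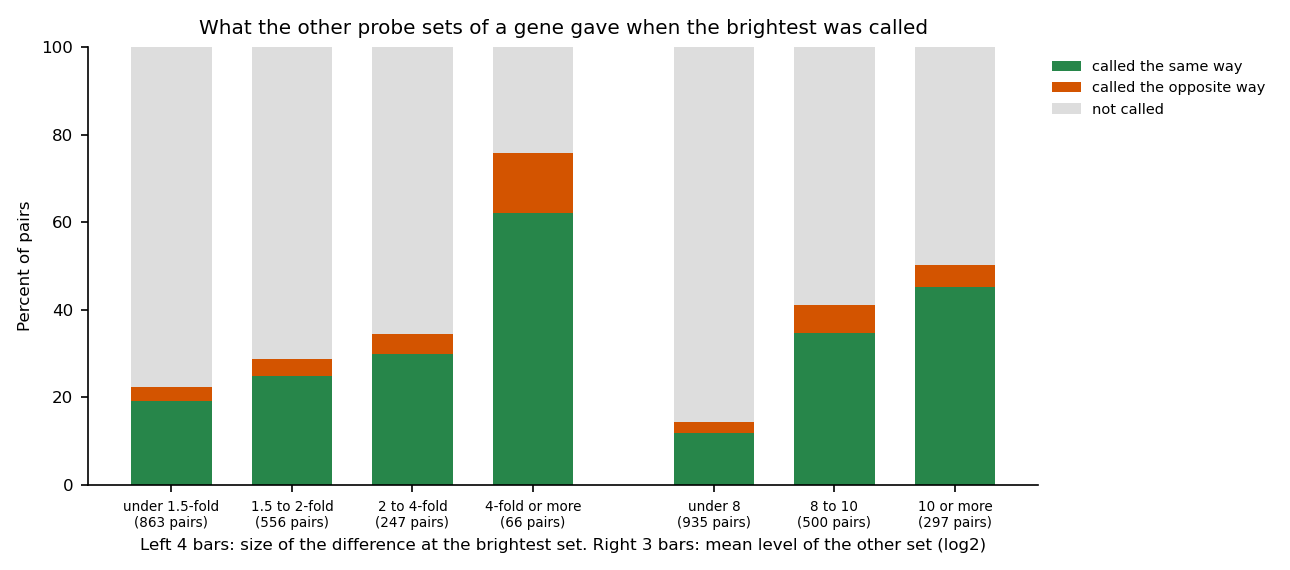
Percent of pairs in which the other probe set of a gene was called the same way as the brightest (green), the opposite way (orange) or not (grey), by the size of the difference at the brightest set and by the mean level of the other set. The green share rises from 19.1% to 62.1% with size and from 11.9% to 45.1% with brightness. The orange share is 13.6% at 4-fold or more, a class of 66 pairs of 38 genes.

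Leaving out sets marked _x_at or _s_at, 4846 genes had at least 2 tested sets, and 1275 had at least 1 called. All sets were called in one direction in 133 of these genes, 53 higher and 80 lower in C3H. In 980 only 1 set was called, and in 61 sets were called in both directions. Of the 598 called bright genes, 385 had another tested set of any kind: 153 had one called the same way and 35 one called the opposite way, and in 208 no other set was called.

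The genes whose every set was called one way, ranked by their smallest difference, were led by Baiap2l1, a scaffold of membrane curvature and actin. It was read at 12.58, 12.78, 13.22, 13.43 and 13.12 in C3H and at 8.59, 8.95, 8.39, 8.44 and 8.71 in C57Bl/6, and its sets gave 4.41 ± 0.14 and 4.67 ± 0.11. Next among the rises came Cacng6, a calcium channel subunit (2.49 ± 0.22 and 2.78 ± 0.39), Pacsin1, a membrane-bending protein (2.04 ± 0.20 and 2.50 ± 0.36), and Alad (1.93 ± 0.16 and 2.10 ± 0.19). Slc25a29, a mitochondrial carrier of basic amino acids, was higher at all 5 of its sets, those marked _x_at included, by 3.53, 2.98, 1.89, 1.37 and 1.26, and these sizes were unequal, with 4 of 4 pairs called in the direct test. Wdfy1, an endosomal adaptor, was higher by 2.92, 3.66 and 1.63, and Igsf23 by 1.37, 1.74 and 2.08. Chm, which helps attach lipids to Rab proteins, was higher by 1.61 and 1.24. Shisa3 and 4632415L05Rik completed the 10 rises. Where the dimmer strain's mean is under the brightness filter of 5.74, as at the second sets of Cacng6, Pacsin1 and Wdfy1 and the third of Igsf23, the size depends on the pseudocount.

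Among the falls, Cyfip2, a partner of the fragile X protein in the actin-regulating WAVE complex, was read at 9.04, 9.19, 9.60, 9.38 and 9.24 in C3H and at 11.90, 11.91, 11.77, 11.98 and 11.92 in C57Bl/6. Its sets gave -2.61 ± 0.12 and -2.77 ± 0.11. Pttg1, securin, which holds sister chromatids together until anaphase, was at 11.72 ± 0.40 in C3H and 15.02 ± 0.15 in C57Bl/6, and its sets gave -3.30 ± 0.15 (marked _s_at), -3.59 ± 0.14 and -1.57 ± 0.41, the last with a C3H mean under the filter. Nedd1, which anchors gamma-tubulin, differed by -2.20 and -1.69, Cand2, a regulator of ubiquitin ligases in muscle, by -1.87 and -1.75, and Aplnr by -1.69 and -1.26. Pgap2, which remodels lipid anchors, differed by -1.20 and -1.43, but a set marked _s_at, outside this count, gave -0.20 ± 0.13 and was not called. The remaining 4 were 2610507I01Rik, Bcl11b, Ppm1h and Trim16.

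Genes called in both directions held some of the largest values on the array. Pdxdc1, which encodes a decarboxylase-like protein, was read at its brightest set at 11.75, 11.76, 12.03, 11.96 and 12.02 in C3H and at 4.98, 5.02, 5.47, 5.38 and 4.42 in C57Bl/6. Every C57Bl/6 value lay under the brightness filter of 5.74, so that the direction can be read and the size cannot: the fitted difference was 6.85 with the pseudocount of 16, 7.8 with 1 and 5.57 with 64. The other 3 sets were all called lower, with -4.48 ± 0.21 at the brightest of them. Zfp24, a zinc finger factor, was called lower at its brightest set (-0.41 ± 0.11, adjusted p = 0.0144, and 0.131 after centring or 0.0636 with the poly-A covariate) and at 2 others (-0.96 and -1.90), and higher at one giving 2.74 ± 0.14. Kif5b, the heavy chain of kinesin, was higher at 3 of 5 sets (0.99, 1.54 and 0.68) and lower at 1 (-1.34 ± 0.14). Rtn4, the ER-shaping protein Nogo, was higher at sets giving 0.71 and 1.90 and lower at a dim one, with a C3H mean under the filter. Prxl2c gave -1.94 ± 0.12 and 1.11 ± 0.15, Ppp1cb, a protein phosphatase subunit, -1.10 ± 0.17 and 1.55 ± 0.28, and Zfp991 2.04 ± 0.21 and -1.77 ± 0.20, with another Zfp991 set not called. Tspan18 was not called at its brightest set (-0.10 ± 0.19) and was called in opposite directions at its other 2, at each of which one strain's mean lay under the filter. Which stretch of the transcript each set reads, and whether its probes match the sequences of both strains alike, was not analysed here.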

How the data were processed

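Heart RNA of 15 mice was read on 1 Affymetrix array each. The deposited values are log2 signals per probe set. The submitters' processing notes name MAS5, the deposited values come with no stated scaling or log step. Once the log2 was undone, the 2% trimmed mean of the arrays was 500.257 to 500.276, which is the basis for calling them log2 and scaled. The values hold no detection calls, and no 2 arrays were identical. Control probe sets (64 of 45096) were set aside. Levels are log2(signal + 16), and probe sets with a mean over the 15 arrays at or above the 40th percentile (5.74) were tested. The comparison was fitted with limma 3.58.1 (R 4.3.3), with an intensity trend, and p-values were adjusted by Benjamini-Hochberg over 27019 probe sets. The script was tested on simulated data. Of 45032 probe sets, 34940 carry 1 gene symbol, 932 several and 9160 none in the platform annotation, which can be old. Symbols of 34736 were matched to RefSeq (GRCm38.p6). A gene was read at its brightest probe set with 1 symbol, and 1452 of these end in _x_at or _s_at. The direct test of 2 probe sets of a gene was limma on their difference, adjusted over 9937 pairs. SD is over 5 arrays and SE is the fit's, and the number of arrays limits the precision.

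Named were the 12 bright genes without overlap that differed most each way, the 10 each way with every set called one way and the largest smallest difference, the 8 called both ways with the largest smaller difference, and, in each list, up to 4 called genes of smallest adjusted p, or any called gene where 5 or fewer were called. Myh6, Myh7 and cardiomyocyte markers were named by rule, and further list members were picked with their values in view. A gene that met these rules is not reported here. The members and lists were chosen with earlier results of these data known. Lists are described by counts and medians, with no set test. Alternatives covered the pseudocount, the filter, scaling, the arrays fitted, the trend, array weights, covariates, a replicate block, a 1.5-fold minimum and each array left out.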

Additional observations from a re-analysis of the deposited data

Results flagged for a closer look

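In 6 of 134 groups of 5 arrays checked among the named genes, 1 array lay farther from the rest than Dixon's 95% limit (0.71 of the range), and chance alone passes this limit in about 1 group in 20. For D2hgdh, C3H replicate 5 was at 10.39 with the next array at 10.57. For Slc25a51, C57Bl/6 replicate 2 was at 12.19 with the next at 12.48. For Saraf, C3H replicate 1 was at 13.62 with the next at 13.24. For Med1, C57Bl/6 replicate 2 was at 10.10 with the next at 10.34. For Cacng6, C57Bl/6 replicate 1 was at 5.30 with the next at 6.07, and for Slc25a29, C3H replicate 4 was at 13.35 with the next at 12.62. None of these 6 genes lost its call when any 1 array was left out.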

How the results depend on the processing

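No called difference of a gene followed across settings changed sign (uncalled ones of Tnnc1, Ttn, Pln, Actc1 and Tspan18 did), but the balance of calls turned. Centring each array on its median moved every difference up by 0.105, and then 1148 probe sets and 577 genes were lower, 2079 probe sets (64.4% of those called, against 44.9%) and 1178 genes were higher, and 6 unfolded protein response genes were lower. Without the intensity trend 6 unfolded protein response genes were lower. Against a 1.5-fold minimum, 509 probe sets were called (200 higher, 309 lower) and 267 genes (114 higher, 153 lower), with 29 bright genes, 176 unequal pairs, 13 genes called one way at every set, 4 called both ways, 1 PPAR alpha target lower, 1 unfolded protein response gene lower and 0 cardiac transcription factors higher. Leaving out 1 array gave 2740 to 3706 probe sets (1201 to 1627 higher, 1504 to 2079 lower), 1543 to 2113 genes (698 to 954 higher, 826 to 1159 lower), 451 to 707 bright genes, 632 to 850 unequal pairs, 103 to 134 genes called one way at every set, 46 to 71 called both ways, 7 to 10 unfolded protein response genes lower, 6 to 9 PPAR alpha targets lower and 5 to 6 cardiac transcription factors higher. Why these counts moved was not tested. The replicate numbers did not pair the arrays (correlations of deviations from -0.04 to 0.11), and a replicate block gave 3353 probe sets. Of 221 called genes that the naming rules and lists took in, not all of them described, 134 kept their call in all 25 settings other than the 1.5-fold minimum, 58 lost it with the poly-A covariate, 52 without the trend, 47 after centring and 61 when at least 1 array was left out. Bright genes were not counted under other pseudocounts, which change their levels.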
